A study of Mus musculus with 15 samples.

Results

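The genes described here make cholesterol and fatty acids or control that synthesis. They were taken by gene symbol from a list of 31 symbols, of which 30 had a row among the 24819 genes of the deposited tables (Hmgcs1 was not analysed here). The 30 are 6 genes from acetyl-CoA to farnesyl diphosphate, 11 from squalene to cholesterol, 4 regulators, 2 genes of sterol transport and 7 of fatty acid synthesis. All 30 passed the filter on low values that left 12249 genes for testing. The list was selected on pathway role, and it was drawn up with the fold changes of each knockdown against siNT in these same libraries already known. Those differences are therefore given for the members as a description, without p-values, and nothing is inferred from how many members passed a threshold.

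The RNA came from E14, a line of mouse embryonic stem cells, grown on gelatin in serum with leukemia inhibitory factor. Cells were transfected with an siRNA against Rpl11 (siRpl11), Rpl14 (siRpl14), Rpl18 (siRpl18) or Rpl23 (siRpl23), genes that encode proteins of the large ribosomal subunit, or with siNT, a non-targeting siRNA. There were 3 libraries in each of the 5 groups, and the sample titles give 48 h where the treatment protocol gives 3 days. All groups shared the cell line, the medium and the transfection, the only genetic background is that of the 1 line, and the knockdowns were partial: the targeted gene kept 24.03% of its siNT level in siRpl11, 51.6% in siRpl14, 32.7% in siRpl18 and 36.3% in siRpl23 (mean FPKM, n = 2). Values are FPKM (fragments per kilobase of transcript, scaled to sequencing depth), a level per transcript length. Replicates 1 and 2 of all groups were in 1 table and the third libraries in another, normalized separately, so the third library of a group is compared with siNT only within its own table. In the third libraries the targeted gene kept 19.9% of its siNT level in siRpl11, 38.5% in siRpl14, 31.2% in siRpl18 and 31.1% in siRpl23. Where 3 values of a group are given, they are replicate 1, replicate 2 and the third library, in that order.

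Cholesterol is built from acetyl-CoA by way of mevalonate, farnesyl diphosphate, squalene and lanosterol, and fatty acids are built from the same acetyl-CoA by way of malonyl-CoA. Both routes are switched on by the transcription factors SREBP2 and SREBP1, encoded by Srebf2 and Srebf1, which are held in the endoplasmic reticulum until the escort protein SCAP carries them to the Golgi for cleavage. Sterols stop that transport by making SCAP bind INSIG1, so most of these genes are known to fall together when sterols are plentiful and to rise together when they are scarce.

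Absolute depth is unknown, because FPKM keeps no total count. Steps between low values, each worth 1 read, gave approximate depths of 0.697 to 1.39 relative to the first siNT library in the first table, and of 1.00 to 1.31 relative to the siNT library in the second. Summed over 9 markers of embryonic stem cells, the level was 6541 to 6953 FPKM in siRpl11, 5315 to 5680 in siRpl14, 5451 to 5871 in siRpl18 and 5357 to 5619 in siRpl23, against 7841 to 8243 in siNT (first table). In the second table this sum was 7156, 6408, 6270 and 6417 FPKM in siRpl11, siRpl14, siRpl18 and siRpl23, against 7200 in siNT. Much of the sum was Dppa5a (4048 and 4350 FPKM in the siNT replicates), and it hid opposite changes. In siRpl11, 5 of the 9 were called lower, among them Nanog at 43.9% of siNT, Esrrb at 43.6%, Klf4 at 49.7% and Zfp42 at 49.8%, and 3 higher, Pou5f1, Sox2 and Utf1 (114%, 124% and 131%). In each of siRpl14, siRpl18 and siRpl23, 7 were called lower and 1, Sox2, higher. Of all genes, 43.6%, 29.5%, 34.7% and 30.8% were called lower in siRpl11, siRpl14, siRpl18 and siRpl23, and 27.3%, 33.3%, 32.8% and 34.9% higher. In the third libraries these 7 were again below siNT except Klf4 in siRpl18 (83.9 FPKM, against 64.2 in siNT). Klf4 was level with siNT in the third siRpl23 library (64.1 FPKM). In the second table Nanog stood at 41.97% of siNT in siRpl11. Of 8 fibroblast markers, 6 stayed under 1 FPKM in all 15 libraries and Dcn and Lum were at 0 in every one. The other 2 were called lower in all 4 knockdowns, as were 22.7% of all genes. Thy1 stood at 29.96% in siRpl11, 51.8% in siRpl14, 51.1% in siRpl18 and 54.1% in siRpl23 of its siNT mean. Pdgfrb stood at 19.1% in siRpl11, 37.7% in siRpl14, 26.03% in siRpl18 and 30.01% in siRpl23. The sum of the list was 4.18 to 5.66 FPKM in siRpl11, 8.93 to 9.14 in siRpl14, 7.77 to 9.498 in siRpl18 and 9.04 to 9.302 in siRpl23, against 16.7 to 16.9 in siNT, and so moved the same way as most lipid genes. Most of this sum was Thy1 (14.6 and 15.05 FPKM in the siNT replicates). Col1a1, under 1 FPKM throughout, went the other way in siRpl14, siRpl18 and siRpl23 (means of 0.76, 0.64 and 0.67 FPKM, against 0.39 in siNT). Summed over 7 markers of trophectoderm, the level was 31.2 to 31.7 FPKM in siRpl11, 83.01 to 83.1 in siRpl14, 62.9 to 65.6 in siRpl18 and 82.4 to 87.8 in siRpl23, against 30.99 to 31.5 in siNT. In the second table it was 27.3, 98.7, 58.8 and 92.3 FPKM in the same knockdowns, against 29.7 in siNT. Most of the siNT sum was Tfap2c (19.7 and 18.2 FPKM in the replicates), and in siRpl11 the sum hid opposite changes. There Gata3 and Tfap2c were called higher (log2 fold changes of 1.005 and 0.26) and Krt8, Krt18 and Eomes lower (-0.77, -0.45 and -0.37). Over 7 markers of primitive endoderm it was 5.72 to 5.86, 6.095 to 6.54, 8.604 to 8.74 and 6.96 to 7.57 FPKM in siRpl11, siRpl14, siRpl18 and siRpl23, against 3.48 to 3.58 in siNT. The second table gave 3.48, 4.71, 5.69 and 3.52 FPKM in the same knockdowns, against 2.65 in siNT. There Sox7 was below siNT in every knockdown, and Foxa2 and Dab2 were below it in siRpl23. Of the 7, 3 stayed under 1 FPKM in all 15 libraries. The part of these shifts in the results was not tested.

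Most of the 30 genes were lower in every knockdown than in siNT. A gene was called where limma's Benjamini-Hochberg adjusted p, over all 12249 genes, was under 0.05 in a fit of replicates 1 and 2 of all groups. In siRpl11, 27 of the 30 were called lower and 2 higher, where 43.6% and 27.3% of all genes were called. In siRpl14 the members called were 23 lower and 1 higher (all genes, 29.5% and 33.3%). For siRpl18 they were 24 lower and 1 higher (all genes, 34.7% and 32.8%), and for siRpl23 22 lower and 2 higher (all genes, 30.8% and 34.9%). In either direction, 70.9%, 62.8%, 67.6% and 65.7% of all genes were called in siRpl11, siRpl14, siRpl18 and siRpl23. Since the choice of members used these same contrasts, the counts describe the list and nothing more. All 4 comparisons share the siNT libraries. In bulk RNA, fewer cells expressing a gene and less RNA per cell cannot be told apart.

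The median log2 fold change of the 30 genes, on the log2(FPKM + 1) scale, was -0.51 in siRpl11, -0.37 in siRpl14, -0.50 in siRpl18 and -0.38 in siRpl23. Over all genes tested the median was -0.11, 0.016, -0.017 and 0.022 in the same groups. In the third libraries the members' median difference was -0.61 in siRpl11, -0.49 in siRpl14, -0.55 in siRpl18 and -0.48 in siRpl23. The members' median was thus below 0 in each knockdown in both tables. Every library of a knockdown was below the siNT libraries of its table for 28 of 30 genes in siRpl11, 24 in siRpl14, 26 in siRpl18 and 23 in siRpl23. The same held for 45.4%, 31.9%, 37.2% and 33.4% of all genes. Members with every library above siNT were 0, 1, 2 and 2 in the same groups, where 29.1%, 37.1%, 34.4% and 36.0% of all genes were. Every library was below siNT in all 4 knockdowns at once for 22 of the 30, where 23.0% of all genes were. The 8 genes outside these 22 were Mvk, Pmvk, Idi1, Tm7sf2, Hsd17b7, Ebp, Scap and Abca1.

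**Figure D1:**
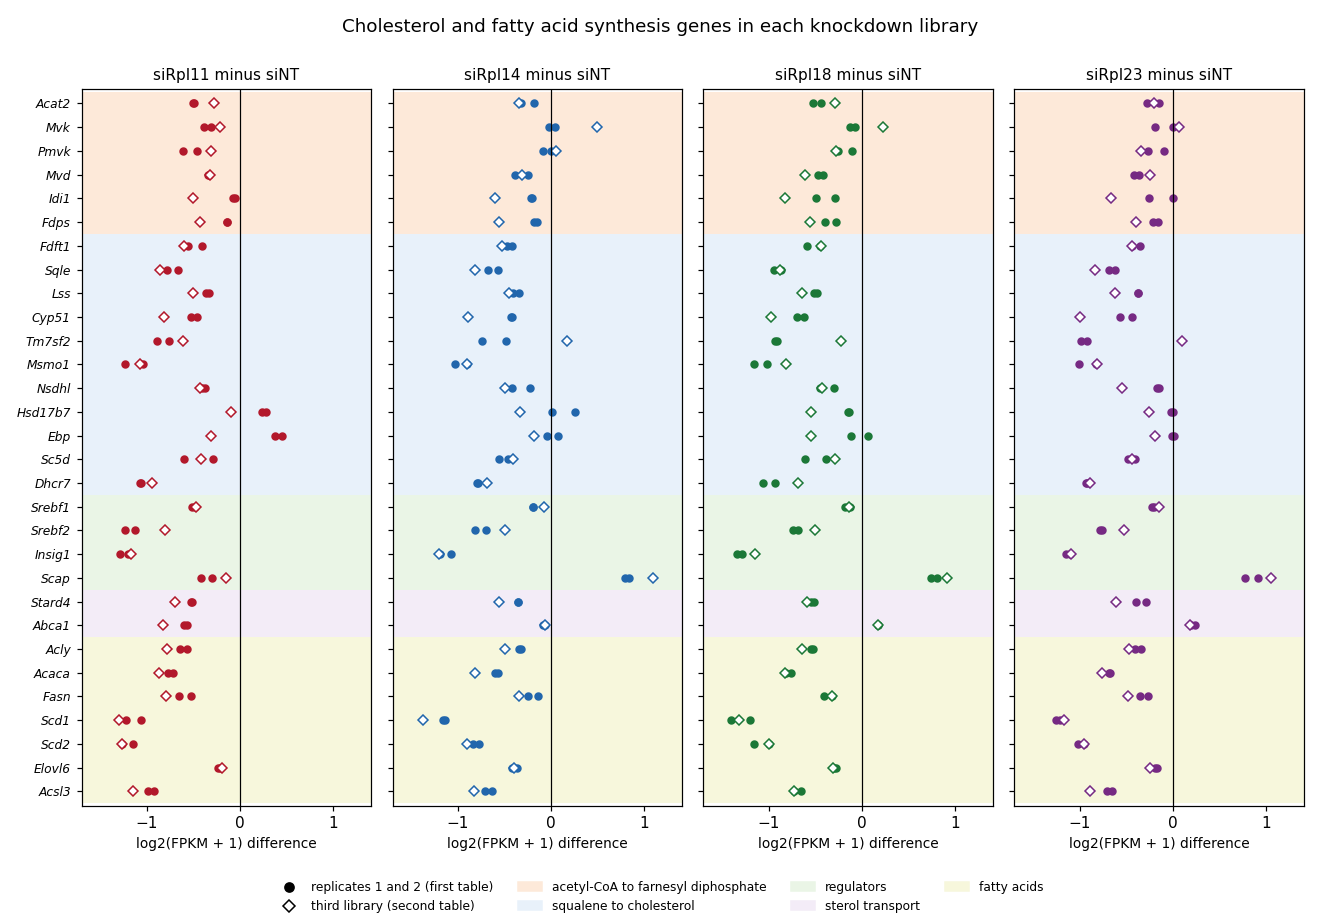
Difference from siNT in log2(FPKM + 1) for the 30 genes (rows, shaded by role) in each knockdown (panels); circles are replicates 1 and 2 minus the mean of the siNT replicates of the first table, and diamonds the third library minus the siNT library of the second. Most points lie left of 0 in all panels, Scap lies right of 0 in siRpl14, siRpl18 and siRpl23, and Ebp and Hsd17b7 change side between the tables in siRpl11.

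**Figure D2:**
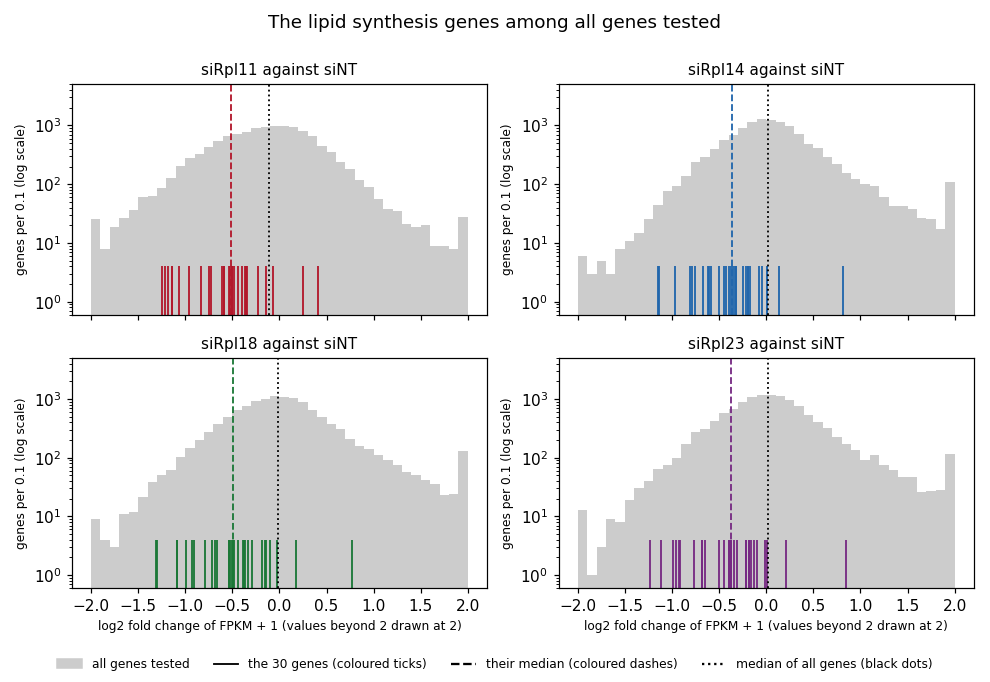
Log2 fold changes of all 12249 genes tested (grey histogram, counts on a log axis) for each knockdown against siNT, with the 30 genes as coloured ticks. Dashed coloured lines mark the members' medians (-0.51, -0.37, -0.50 and -0.38 for siRpl11, siRpl14, siRpl18 and siRpl23), all left of the dotted black median of all genes.

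Of the 4 regulators, Insig1, Srebf2 and Srebf1 were lower in all 12 knockdown libraries, and Scap went its own way. Insig1, whose protein retains SCAP in the endoplasmic reticulum and which is itself a known SREBP target, measured 20.7, 19.5 and 17.9 FPKM in siRpl11, 20.9, 22.8 and 17.6 in siRpl14, 18.9, 19.6 and 18.3 in siRpl18 and 21.7, 22.4 and 18.9 in siRpl23, against 47.6, 50.8 and 41.7 in siNT. The knockdown libraries lay close together and every one of them was well below each siNT library. The log2 fold change was -1.25 ± 0.057 in siRpl11, -1.14 ± 0.057 in siRpl14, -1.31 ± 0.057 in siRpl18 and -1.12 ± 0.057 in siRpl23 (estimate ± SE from limma, here and below), and Insig1 kept 39.1% to 44.9% of its siNT level in the first table.

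Srebf2, which encodes the SREBP of cholesterol synthesis, measured 28.97, 26.8 and 33.5 FPKM in siRpl11, 39.4, 36.3 and 41.9 in siRpl14, 39.7, 38.2 and 41.5 in siRpl18 and 37.1, 37.7 and 40.98 in siRpl23, against 67.4, 61.7 and 59.3 in siNT. The siRpl11 libraries were the lowest, and siRpl14, siRpl18 and siRpl23 lay close together between them and siNT. The log2 fold change was -1.18 ± 0.060 in siRpl11, -0.75 ± 0.060 in siRpl14, -0.71 ± 0.060 in siRpl18 and -0.77 ± 0.060 in siRpl23. For Srebf1, which encodes the SREBP better known for fatty acid genes, the estimates were smaller: -0.50 ± 0.055 in siRpl11, -0.19 ± 0.055 in siRpl14, -0.16 ± 0.055 in siRpl18 and -0.21 ± 0.055 in siRpl23. Its libraries had 14.96, 14.7 and 14.7 FPKM in siRpl11, against 22.6, 20.3 and 20.9 in siNT, without overlap.

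Scap, the sterol-sensing escort of the SREBPs, measured 9.34, 8.52 and 10.2 FPKM in siRpl11, 21.7, 21.04 and 25.6 in siRpl14, 21.2, 20.3 and 22.4 in siRpl18 and 23.1, 20.9 and 24.8 in siRpl23, against 12.1, 11.4 and 11.5 in siNT. All 9 libraries of siRpl14, siRpl18 and siRpl23 were above siNT and the 3 siRpl11 libraries were below it. The log2 fold change was -0.36 ± 0.064 in siRpl11, 0.81 ± 0.064 in siRpl14, 0.77 ± 0.064 in siRpl18 and 0.85 ± 0.064 in siRpl23, and in the third libraries -0.16, 1.10, 0.91 and 1.05 in the same groups. In linear terms Scap stood at 182%, 176% and 187% of siNT in siRpl14, siRpl18 and siRpl23 and at 75.9% in siRpl11. It was the member called higher in siRpl14 and in siRpl18, with no other member called higher there.

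**Figure D3:**
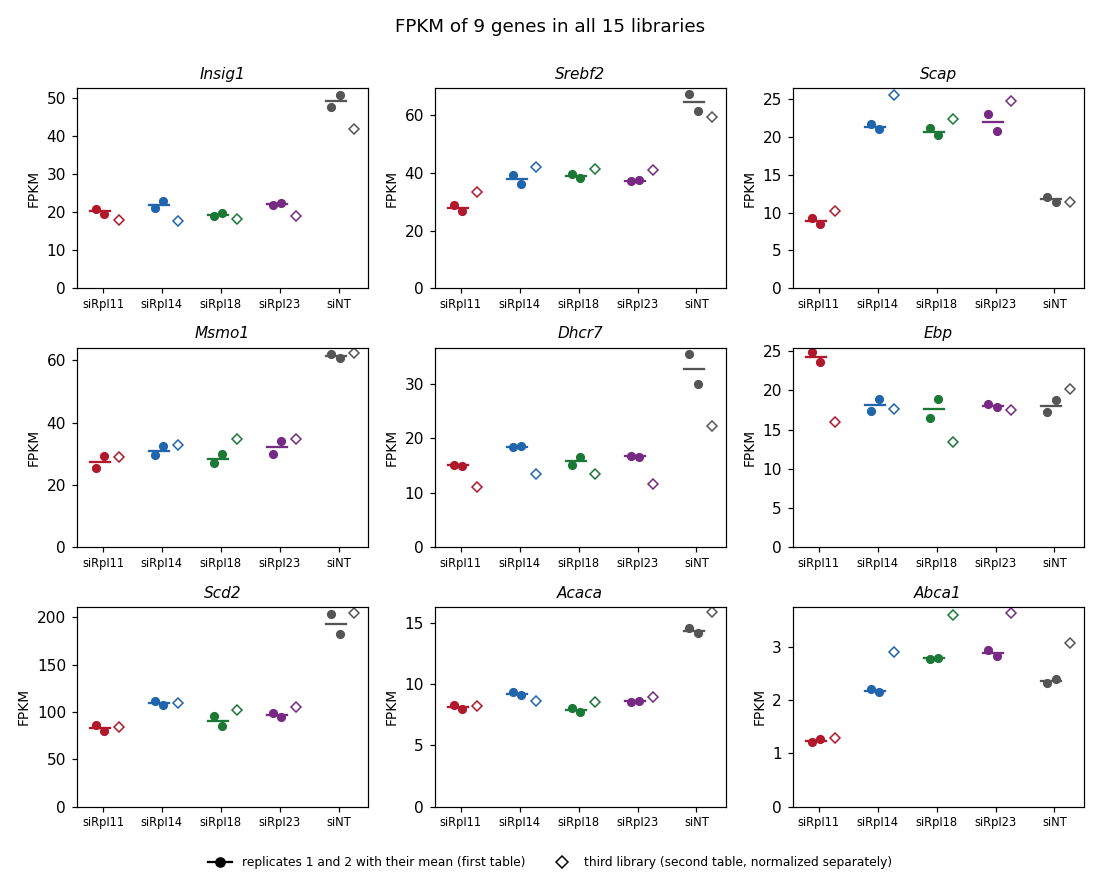
FPKM of 9 of the genes in all 15 libraries, by group; circles are replicates 1 and 2 with their mean as a line, and diamonds are the third libraries, which come from a separately normalized table. Insig1, Srebf2, Msmo1, Dhcr7, Scd2 and Acaca sit below siNT in all 12 knockdown libraries, Scap and Abca1 are lowest in siRpl11, and Ebp is highest in the first 2 siRpl11 libraries but not in the third.

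Since many of these genes moved together, their promoters were read for short motifs (250 bases before to 50 after the start, RefSeq, build GRCm38.p6). A promoter was in the table for 24 of the 30 genes. The NF-Y box CCAAT, known to be bound by a cofactor of SREBPs, occurred on either strand in 19 of the 24 genes, in 41.1% of all 27025 genes with a promoter and in 43.8% of those among the genes tested. The GC box GGGCGG occurred in 20 of 24, against 38.2% of all and 70.7% of tested genes, and the E-box CACGTG in 6 of 24, against 8.09% and 12.2%. The sterol element TCACNCCAC occurred in 0 of 24, where 1.44% of all genes held it, which says only that these letters were not in these windows. No motif contains another, genes with several starts counted once, and a match is not evidence of a site. The 5 genes without CCAAT were Abca1, Acaca, Acat2, Elovl6 and Scap. Of these, Acaca, Acat2 and Elovl6 were below siNT in every knockdown library. Abca1 and Scap were above siNT in every library of siRpl18 and siRpl23. Mvk, Pmvk, Idi1, Tm7sf2, Hsd17b7 and Ebp, which were not below siNT in every knockdown library, held CCAAT. Among them, Pmvk, Idi1 and Tm7sf2 still had fold changes below 0 in all 4 knockdowns. Whether the motif follows direction was not tested.

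Below are the 250 bases before the start, 5′ to 3′ on the gene's strand in GRCm38.p6, of 3 genes that were lower in every knockdown and of Scap, which was not. Capitals mark CCAAT or its reverse complement and CACGTG. Msmo1 has 3 CCAAT boxes here, Insig1 and Srebf2 have 1 each, and Insig1 also has 1 E-box. The Scap stretch, which precedes the first of its 2 listed starts, has neither motif. Scap was still among the 6 genes counted above with the E-box CACGTG, so that match lies outside the stretch printed.
Insig1 (chr5:28071162-28071411, plus strand): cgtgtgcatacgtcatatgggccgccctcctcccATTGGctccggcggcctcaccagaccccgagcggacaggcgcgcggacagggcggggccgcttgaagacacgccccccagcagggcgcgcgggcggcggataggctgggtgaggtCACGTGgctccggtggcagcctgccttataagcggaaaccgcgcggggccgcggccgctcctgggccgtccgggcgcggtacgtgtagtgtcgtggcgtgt
Msmo1 (chr8:64733579-64733828, minus strand): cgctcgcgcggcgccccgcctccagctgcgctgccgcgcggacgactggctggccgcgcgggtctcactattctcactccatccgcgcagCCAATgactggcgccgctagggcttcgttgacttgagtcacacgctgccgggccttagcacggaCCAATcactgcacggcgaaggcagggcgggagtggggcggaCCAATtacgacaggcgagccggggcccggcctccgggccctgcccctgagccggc
Srebf2 (chr15:82147019-82147268, plus strand): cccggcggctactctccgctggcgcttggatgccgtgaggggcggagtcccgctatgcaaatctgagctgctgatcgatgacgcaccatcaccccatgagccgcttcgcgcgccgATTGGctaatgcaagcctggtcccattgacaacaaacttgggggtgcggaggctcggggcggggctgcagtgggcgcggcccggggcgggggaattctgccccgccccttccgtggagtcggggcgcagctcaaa
Scap (chr9:110333038-110333287, plus strand): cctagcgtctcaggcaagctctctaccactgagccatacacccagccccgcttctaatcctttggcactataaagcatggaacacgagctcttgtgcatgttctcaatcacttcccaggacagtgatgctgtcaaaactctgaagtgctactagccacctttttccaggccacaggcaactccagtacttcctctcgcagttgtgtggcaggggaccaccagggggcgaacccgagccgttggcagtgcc

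Of the 6 genes from acetyl-CoA to farnesyl diphosphate, Acat2, Mvd and Fdps were called lower in every knockdown, and Mvk and Pmvk in siRpl11 alone. In all, 5 were called lower in siRpl11, 3 in siRpl14, 4 in siRpl18 and 3 in siRpl23, with none called higher, where 43.6%, 29.5%, 34.7% and 30.8% of all genes were called lower. Their median log2 fold change was -0.35, -0.19, -0.36 and -0.18 in the same groups. Acat2, the cytosolic thiolase that joins acetyl-CoA units, measured 25.5, 25.3 and 39.6 FPKM in siRpl11, 28.98, 32 and 37.8 in siRpl14, 25.1, 26.7 and 39.1 in siRpl18 and 29.8, 32.7 and 41.6 in siRpl23, against 35.8, 37.03 and 48.2 in siNT. Every knockdown library was below siNT within its table, and the log2 fold change was -0.50 ± 0.061 in siRpl11, -0.25 ± 0.061 in siRpl14, -0.48 ± 0.061 in siRpl18 and -0.21 ± 0.061 in siRpl23.

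Mvd, the decarboxylase that yields isopentenyl diphosphate, measured 13.6, 13.5 and 16.7 FPKM in siRpl11, 14.5, 13.04 and 16.9 in siRpl14, 12.3, 12.8 and 13.6 in siRpl18 and 12.8, 13.3 and 17.8 in siRpl23, against 17.8, 16.9 and 21.3 in siNT. No knockdown library overlapped siNT, and the fold changes were -0.34 ± 0.060 in siRpl11, -0.32 ± 0.060 in siRpl14, -0.44 ± 0.060 in siRpl18 and -0.39 ± 0.060 in siRpl23. Fdps, which makes farnesyl diphosphate, showed -0.15 ± 0.054 in siRpl11, -0.17 ± 0.054 in siRpl14, -0.33 ± 0.054 in siRpl18 and -0.18 ± 0.054 in siRpl23, with larger differences in the third libraries (-0.43, -0.56, -0.56 and -0.39).

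Pmvk, the second kinase on the way from mevalonate, measured 13.8, 12.3 and 16.2 FPKM in siRpl11, 18.2, 19.3 and 21.1 in siRpl14, 15.9, 17.8 and 16.7 in siRpl18 and 15.9, 18.1 and 15.9 in siRpl23, against 19.5, 19.1 and 20.4 in siNT. The siRpl11, siRpl18 and siRpl23 libraries were below siNT within their tables, whereas siRpl14 overlapped siNT in the first table and was above it in the second. Fold changes were -0.54 ± 0.078 in siRpl11, -0.043 ± 0.078 in siRpl14, -0.19 ± 0.078 in siRpl18 and -0.18 ± 0.078 in siRpl23. Mvk, the kinase before it, was likewise called only in siRpl11 (-0.35 ± 0.077), and the third library was above siNT in siRpl14 (0.50), siRpl18 (0.22) and siRpl23 (0.061).

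Idi1, the isomerase of isopentenyl diphosphate, showed small differences in the first table and larger ones in the second. It measured 7.42, 7.24 and 13.9 FPKM in siRpl11, 6.495, 6.55 and 12.9 in siRpl14, 5.197, 6.15 and 10.9 in siRpl18 and 7.72, 6.33 and 12.3 in siRpl23, against 7.62, 7.82 and 20.04 in siNT. In the first table the differences were -0.066 ± 0.092 in siRpl11, -0.21 ± 0.092 in siRpl14, -0.39 ± 0.092 in siRpl18 and -0.13 ± 0.092 in siRpl23. There siRpl23 overlapped siNT, and siRpl18 alone was called. In the third libraries they were -0.50, -0.60, -0.83 and -0.67 in siRpl11, siRpl14, siRpl18 and siRpl23, with every library below siNT.

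From squalene to cholesterol, 9 of 11 genes were called lower in siRpl11, 9 in siRpl14, 9 in siRpl18 and 8 in siRpl23, where 43.6%, 29.5%, 34.7% and 30.8% of all genes were. The 2 called higher in siRpl11 were Ebp and Hsd17b7. Medians were -0.49, -0.45, -0.52 and -0.45. Msmo1, the methylsterol oxidase, measured 25.5, 29.2 and 28.9 FPKM in siRpl11, 29.6, 32.4 and 32.8 in siRpl14, 26.9, 29.9 and 34.9 in siRpl18 and 29.98, 34.3 and 34.9 in siRpl23, against 61.99, 60.9 and 62.2 in siNT. The knockdown groups lay close together and none reached siNT. The fold changes were -1.14 ± 0.083 in siRpl11, -0.96 ± 0.083 in siRpl14, -1.09 ± 0.083 in siRpl18 and -0.92 ± 0.083 in siRpl23. Dhcr7, the reductase of the last step, measured 15.1, 14.99 and 11.1 FPKM in siRpl11, 18.4, 18.5 and 13.5 in siRpl14, 15.1, 16.6 and 13.4 in siRpl18 and 16.7, 16.6 and 11.6 in siRpl23, against 35.4, 30.1 and 22.3 in siNT. Every knockdown library was below siNT in its own table, with fold changes of -1.07 ± 0.072 in siRpl11, -0.79 ± 0.072 in siRpl14, -0.997 ± 0.072 in siRpl18 and -0.93 ± 0.072 in siRpl23.

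Sqle, the epoxidase at an early control point of the sterol branch, measured 24.6, 22.6 and 23.6 FPKM in siRpl11, 24.4, 26.4 and 24.3 in siRpl14, 21.2, 20.1 and 23.2 in siRpl18 and 24.2, 25.5 and 23.97 in siRpl23, against 40.1, 39.1 and 43.6 in siNT. The siRpl18 libraries were the lowest in each table, no knockdown library overlapped siNT, and the fold changes were -0.72 ± 0.058 in siRpl11, -0.62 ± 0.058 in siRpl14, -0.91 ± 0.058 in siRpl18 and -0.65 ± 0.058 in siRpl23. Fdft1 (squalene synthase), Lss (lanosterol synthase), Cyp51 (the lanosterol demethylase) and Sc5d (a sterol desaturase) were called lower in all 4 knockdowns, with fold changes from -0.66 (Cyp51 in siRpl18) to -0.35 (Lss in siRpl11). Nsdhl, a sterol dehydrogenase, was called lower in siRpl11 (-0.40 ± 0.072), siRpl14 (-0.32 ± 0.072) and siRpl18 (-0.38 ± 0.072) and not in siRpl23 (-0.16 ± 0.072, and in the third library -0.54). For Cyp51 the third libraries gave larger differences, -0.81, -0.89, -0.98 and -0.9961.

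Among the sterol branch genes, Tm7sf2, Ebp and Hsd17b7 did not keep 1 direction in both tables. Tm7sf2, a sterol reductase, measured 2.44, 2.75 and 2.11 FPKM in siRpl11, 2.83, 3.57 and 4.35 in siRpl14, 2.35, 2.38 and 3.08 in siRpl18 and 2.37, 2.22 and 4.101 in siRpl23, against 5.31, 5.46 and 3.76 in siNT. In the first table all knockdowns were below siNT (-0.83 ± 0.093 in siRpl11, -0.61 ± 0.093 in siRpl14, -0.92 ± 0.093 in siRpl18 and -0.96 ± 0.093 in siRpl23), whereas the third libraries of siRpl14 (0.17) and siRpl23 (0.10) were above it. With all 15 libraries in the fit, its siRpl14 estimate was -0.35 ± 0.17 and was not called.

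Ebp, the sterol isomerase, measured 24.9, 23.6 and 15.99 FPKM in siRpl11, 17.4, 18.95 and 17.6 in siRpl14, 16.5, 18.9 and 13.5 in siRpl18 and 18.2, 17.9 and 17.5 in siRpl23, against 17.2, 18.8 and 20.1 in siNT. Replicates 1 and 2 of siRpl11 were above both siNT replicates (0.41 ± 0.072, called higher), yet the third siRpl11 library was below siNT (-0.31). Hsd17b7, a ketosteroid reductase, behaved likewise in siRpl11 (0.25 ± 0.087 in the first table, -0.10 in the third library). With all 15 libraries the siRpl11 estimates were 0.17 ± 0.12 for Ebp and 0.14 ± 0.095 for Hsd17b7, and neither was called.

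All 7 fatty acid genes were called lower in each of the 4 knockdowns, and every knockdown library was below the siNT libraries of its table for all of them. Over all genes tested, 22.7% were called lower in all 4 knockdowns and 23.0% had every library below siNT in all 4. Since the members were chosen with these contrasts known, nothing is read from the difference. Their median was -0.75 in siRpl11, -0.59 in siRpl14, -0.69 in siRpl18 and -0.68 in siRpl23. Scd2, a stearoyl-CoA desaturase and by FPKM the most abundant of the 30 genes in siNT, measured 86.1, 79.4 and 84.3 FPKM in siRpl11, 112, 107 and 109.5 in siRpl14, 95.7, 85.5 and 102 in siRpl18 and 99.1, 94.5 and 105 in siRpl23, against 204, 182 and 205 in siNT. Its mean was lowest in siRpl11 in the first table, as was its level in the second, and the fold changes were -1.21 ± 0.069 in siRpl11, -0.81 ± 0.069 in siRpl14, -1.08 ± 0.069 in siRpl18 and -0.99 ± 0.069 in siRpl23. Its paralog Scd1 measured 13.4, 11.9 and 12.98 FPKM in siRpl11, 12.5, 12.7 and 12.3 in siRpl14, 12.1, 10.4 and 12.8 in siRpl18 and 12.1, 11.6 and 14.3 in siRpl23, against 31.3, 27.2 and 33.4 in siNT. The knockdown groups lay close together, with fold changes of -1.15 ± 0.086 in siRpl11, -1.15 ± 0.086 in siRpl14, -1.30 ± 0.086 in siRpl18 and -1.23 ± 0.086 in siRpl23. Reads of such close paralogs may be split between them, so the separate values are uncertain.

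Acaca, the acetyl-CoA carboxylase that commits carbon to fatty acids, measured 8.28, 7.95 and 8.23 FPKM in siRpl11, 9.31, 9.12 and 8.59 in siRpl14, 8.06, 7.71 and 8.54 in siRpl18 and 8.54, 8.601 and 8.93 in siRpl23, against 14.5, 14.1 and 15.9 in siNT. Fold changes were -0.75 ± 0.054 in siRpl11, -0.59 ± 0.054 in siRpl14, -0.79 ± 0.054 in siRpl18 and -0.68 ± 0.054 in siRpl23, with no overlap of any knockdown with siNT. Acsl3, which activates long-chain fatty acids and acts at lipid droplets, measured 12.8, 12.1 and 9.04 FPKM in siRpl11, 14.97, 15.8 and 11.6 in siRpl14, 14.7, 15.6 and 12.5 in siRpl18 and 15.6, 14.99 and 11.1 in siRpl23, against 25.5, 24.7 and 21.3 in siNT. The siRpl11 libraries were again the lowest in each table, and the fold changes were -0.96 ± 0.054 in siRpl11, -0.67 ± 0.054 in siRpl14, -0.69 ± 0.054 in siRpl18 and -0.68 ± 0.054 in siRpl23.

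Acly (ATP citrate lyase), Fasn (fatty acid synthase) and Elovl6 (a fatty acid elongase) changed less. Acly kept 65.4% of its siNT level in siRpl11, 79.03% in siRpl14, 68.8% in siRpl18 and 76.8% in siRpl23. Fasn kept 65.9%, 87.3%, 77.2% and 80.04% in the same groups. For Elovl6 the order differed, with 75.6% in siRpl14 the lowest, 81.3% in siRpl18, 85.1% in siRpl11 and 87.8% in siRpl23.

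The transport genes differed from each other. Stard4, a cytosolic sterol carrier and known SREBP2 target, measured 8.13, 8.22 and 7.71 FPKM in siRpl11, 9.33, 9.27 and 8.59 in siRpl14, 8.01, 8.22 and 8.4 in siRpl18 and 9.03, 9.804 and 8.21 in siRpl23, against 11.9, 12.4 and 13.1 in siNT. Every knockdown library was below siNT within its table, and the fold changes were -0.52 ± 0.057 in siRpl11, -0.35 ± 0.057 in siRpl14, -0.53 ± 0.057 in siRpl18 and -0.34 ± 0.057 in siRpl23. Abca1, which exports cholesterol and is induced by liver X receptors rather than by SREBPs, measured 1.21, 1.27 and 1.29 FPKM in siRpl11, 2.202, 2.16 and 2.904 in siRpl14, 2.78, 2.78 and 3.601 in siRpl18 and 2.94, 2.84 and 3.63 in siRpl23, against 2.32, 2.403 and 3.08 in siNT. It was lowest in siRpl11 in both tables, slightly below siNT in siRpl14 and above siNT in siRpl18 and siRpl23. Fold changes were -0.59 ± 0.071 in siRpl11, -0.079 ± 0.071 in siRpl14, 0.17 ± 0.071 in siRpl18 and 0.21 ± 0.071 in siRpl23. The higher call in siRpl23 was lost without siNT replicate 1 (0.19), without siRpl23 replicate 1 (0.19) or 2 (0.23), with quantile normalization (0.17) and with only the groups compared.

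Set against the mean of siRpl14, siRpl18 and siRpl23, siRpl11 had 12 of the 30 genes called lower and 2 called higher, where 44.2% and 18.4% of all genes were called (62.6% in either direction). This split depended on scaling: 8 were lower and 10 higher with median-ratio scaling, and 9 lower and 11 higher with quantile normalization. Of all genes, 32.01% were called lower and 31.2% higher with median-ratio scaling, and 26.7% lower and 34.2% higher with quantile normalization, shares near those of the members. The median of all genes in this contrast was -0.12 as deposited, -0.0018 and 0.041 under those scalings. Called lower under all 3 were 7 genes, Pmvk, Srebf1, Srebf2, Scap, Abca1, Fasn and Acsl3. Called higher under all 3 were Hsd17b7 and Ebp, whose difference from siNT turned in the third siRpl11 library as described. For 6 genes the direction itself depended on scaling (Fdft1, Tm7sf2, Nsdhl, Insig1, Stard4 and Acaca).

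Scap differed most between siRpl11 and the other knockdowns under all 3 scalings (-1.17 ± 0.052 as deposited, -1.05 with median-ratio scaling and -0.98 with quantile normalization). Abca1 differed by -0.69 ± 0.058, and by -0.60 with median-ratio scaling and -0.39 with quantile normalization. For Srebf2 the difference was -0.44 ± 0.049, or -0.30 with median-ratio scaling and -0.34 with quantile normalization. The order of these and other genes depended on scaling: Ebp, at 0.41 ± 0.059 as deposited, was at 0.55 with median-ratio scaling and 0.53 with quantile normalization. Fasn differed by -0.30 ± 0.054, and by -0.16 with median-ratio scaling and -0.24 with quantile normalization. Acsl3 differed by -0.28 ± 0.044, and by -0.15 with median-ratio scaling and -0.12 with quantile normalization. Insig1 was not called under any of them (-0.060 ± 0.046 as deposited, 0.073 with median-ratio scaling and 0.065 with quantile normalization). Sqle was not called as deposited (0.0046 ± 0.048) but was called higher with median-ratio scaling (0.14).

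**Figure D4:**
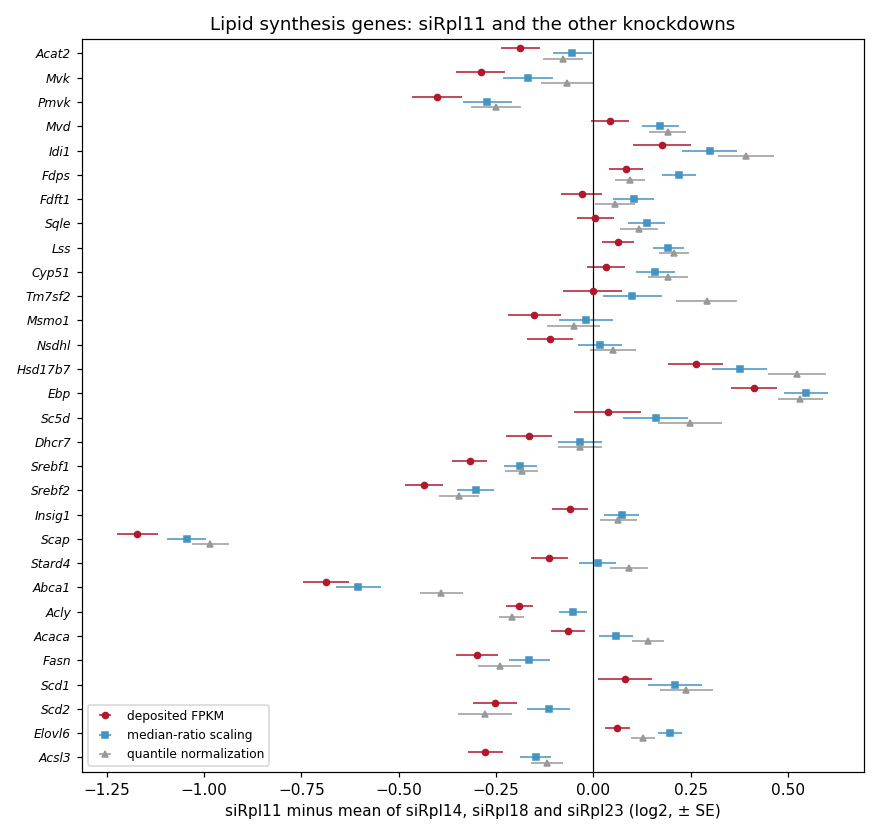
Difference in log2(FPKM + 1) between siRpl11 and the mean of siRpl14, siRpl18 and siRpl23 (estimate ± SE, 10 libraries) for the 30 genes, from the deposited FPKM (circles) and after median-ratio scaling (squares) or quantile normalization (triangles). Scap, Abca1 and Srebf2 lie left of 0 under all 3, Ebp and Hsd17b7 right of 0, and both scalings shift most other genes to the right.

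Among siRpl14, siRpl18 and siRpl23 themselves, limma's F test called 5 of the 30 genes (Acat2, Sqle, Abca1, Acly and Elovl6), where 10.1% of all genes were called. Among the 5, the largest spread was 0.29 for Abca1, with siRpl23 at the top and siRpl14 at the bottom, and 0.29 for Sqle, with siRpl14 at the top and siRpl18 at the bottom. That count was 0 without siRpl14 replicate 2, or without either siRpl18 replicate, and 1 without siRpl23 replicate 2. Insig1, Srebf2, Scap and Acsl3 were not called.

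Genes of the same and neighbouring pathways that are not on the list were then tested. They comprised 30 genes of cholesterol and isoprenoid metabolism and 32 of fatty acids and glycerolipids, taken for their textbook role rather than for how they moved, though with results of these libraries known, and 59 passed the filter. In siRpl11 41 of the 59 were called lower and 7 higher (all genes, 43.6% and 27.3%). In siRpl14 30 were called lower and 13 higher (all genes, 29.5% and 33.3%). For siRpl18 these counts were 39 and 10 (all genes, 34.7% and 32.8%), and for siRpl23 35 and 13 (all genes, 30.8% and 34.9%). The medians were -0.47, -0.20, -0.32 and -0.30.

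In siRpl14, siRpl18 and siRpl23 the largest changes upward among these genes were in Hacd2, a dehydratase of fatty acid elongation, and Lpin1, a phosphatidate phosphatase. Hacd2 measured 20.7, 19.8 and 18.3 FPKM in siRpl11, 28.4, 28.3 and 34 in siRpl14, 30.7, 34.1 and 34.1 in siRpl18 and 29.95, 29.2 and 33.9 in siRpl23, against 12.3, 11.5 and 17.8 in siNT, and its log2 fold change was 0.72 ± 0.058 in siRpl11 (adjusted p = 2.43e-06), 1.18 ± 0.058 in siRpl14 (adjusted p = 1.05e-07), 1.37 ± 0.058 in siRpl18 (adjusted p = 3.05e-08) and 1.24 ± 0.058 in siRpl23 (adjusted p = 6.40e-08). In the third libraries siRpl11 was level with siNT (0.034) and the other knockdowns were above it (0.89, 0.90 and 0.89). Lpin1 measured 11.4, 11.2 and 10.1 FPKM in siRpl11, 17.5, 18.3 and 18.9 in siRpl14, 21.1, 21.8 and 19.4 in siRpl18 and 20.3, 19.2 and 19.7 in siRpl23, against 9.98, 8.69 and 4.66 in siNT, with 0.25 ± 0.065 in siRpl11 (adjusted p = 0.00532), 0.87 ± 0.065 in siRpl14 (adjusted p = 1.83e-06), 1.12 ± 0.065 in siRpl18 (adjusted p = 2.62e-07) and 1.01 ± 0.065 in siRpl23 (adjusted p = 5.93e-07). All its knockdown libraries were above siNT, least so in siRpl11.

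Cpt1a, which brings fatty acids into mitochondria for oxidation, and Apoe, an apolipoprotein, were among the 3 largest changes in siRpl11. Cpt1a fell by 1.29 ± 0.067 there (adjusted p = 1.56e-07), with 11.1, 11.1 and 11.4 FPKM in siRpl11, against 30.8, 26.4 and 24.8 FPKM in siNT. Apoe fell by 1.14 ± 0.051 (adjusted p = 6.66e-08), to 202, 217 and 502 FPKM in siRpl11, against 467, 457 and 1177 in siNT. In siRpl14, siRpl18 and siRpl23 both genes fell by less. The difference between siRpl11 and the mean of those groups was -0.74 ± 0.055 for Cpt1a (adjusted p = 1.60e-06) and -0.83 ± 0.042 for Apoe (adjusted p = 1.09e-07).

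**Figure D5:**
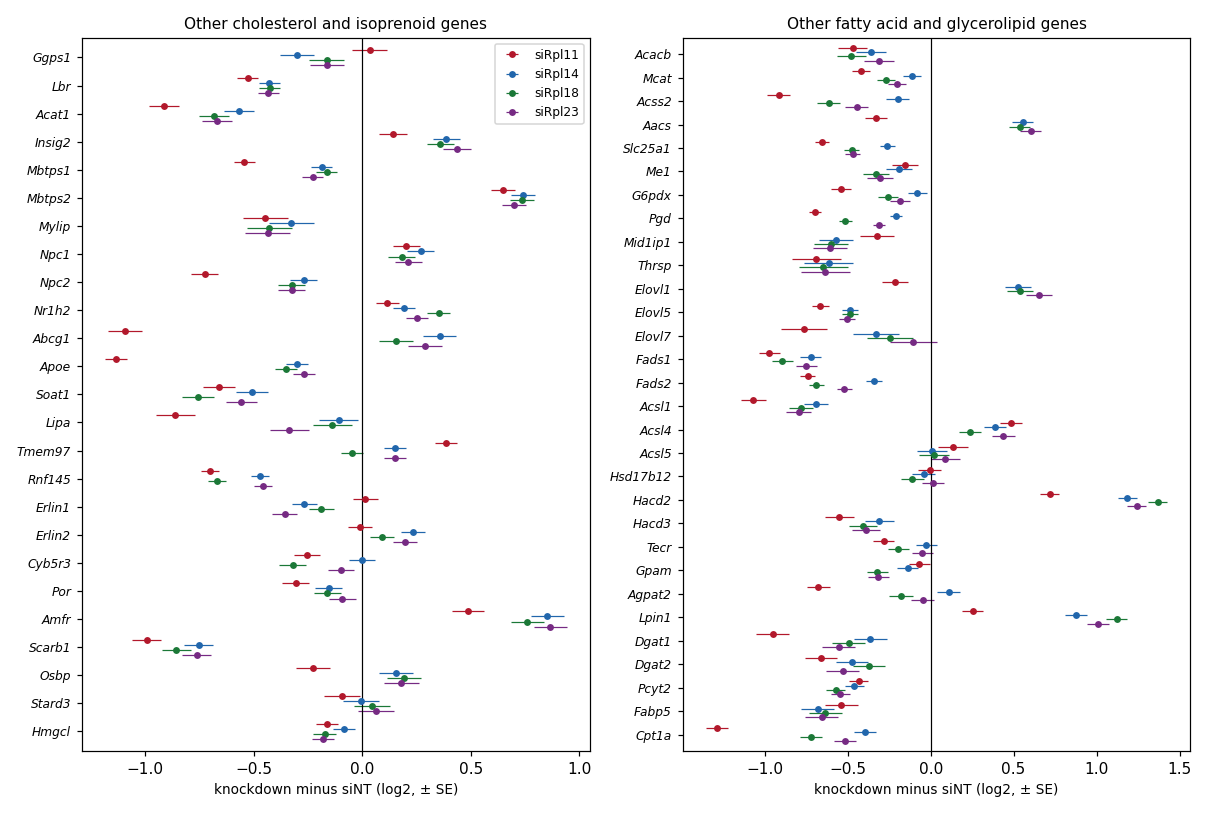
Log2 fold change against siNT (estimate ± SE) of 55 of the 59 other lipid genes that passed the filter, for each knockdown by colour. Hacd2 and Lpin1 lie furthest right in the second panel, and several genes (Abcg1, Apoe, Cpt1a) separate siRpl11 from the other knockdowns.

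Across the 10 libraries of the first table, most members followed 1 profile, above the genes' mean in the siNT libraries (0.33 and 0.29, log2) and below it in every knockdown library. That contrast was known when the members were chosen, so high correlations among them were largely set in advance. The share of all genes with such correlations was not computed, but 22.7% of all genes were called lower in all 4 knockdowns. Against the median profile of the other synthesis genes (17 genes from acetyl-CoA to cholesterol, each left out in turn), Pearson's r was highest for Insig1 (0.976), Acaca (0.972) and Cyp51 (0.971). It was lowest for Scap (-0.342), Ebp (-0.247) and Hsd17b7 (-0.042). The 10 genes off the list most like that profile, of 12219 compared, were E330009J07Rik, Gstm2, Pdxp, Prkar2a, Dnaic2, Nipsnap1, Slc16a1, Zfp444, Bcat1 and Mmab, with r of 0.983 to 0.99. These correlations describe 10 libraries that fall into 5 groups with 1 shared control, and carry no p. Of the 10, Gstm2, a glutathione transferase, averaged 5.48 FPKM in siRpl11, 7.42 in siRpl14, 4.94 in siRpl18 and 6.17 in siRpl23, against 14.8 in siNT. Slc16a1, a monocarboxylate transporter, averaged 30.2, 33.96, 28.7 and 33.8 FPKM in the same knockdowns, against 50.8 in siNT.

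Fdft1, Tm7sf2, Srebf1, Acaca and Acsl3 overlap another protein-coding gene in the RefSeq annotation. Whether the authors counted by strand is not given in the sources used here, so reads could be shared there. Nothing in the labels places replicates in separate cultures. The SE and p-values therefore cover the library-to-library spread alone, and that may be technical.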

How the data were processed

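Messenger RNA of 15 libraries (5 groups of 3) was prepared with a stranded kit, per the labels' protocols. The authors deposited FPKM per gene, per the submitters' processing notes with STAR and Cuffnorm on mm9. Their versions, settings and gene annotation are not stated there. Any rescaling between libraries would hide a shift shared by most transcripts. The 2 tables were normalized separately, and 2 columns of samples outside this series were not used.

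FPKM was tested as log2(FPKM + 1), which understates changes of low genes, without rescaling. The filter asked for 1 FPKM in 2 or more of the first table's 10 libraries. On those libraries group means were modelled in limma 3.58.1 (R 4.3.3; lmFit, contrasts.fit, eBayes with trend), leaving 5 residual degrees of freedom. The third libraries gave differences within their own table. The fit was tested on simulated data. No 2 replicates were near-identical (r across genes, 0.991 to 0.996). Relative depth was read from values of 0.005 to 0.15 FPKM. Named members are, in each role group, those with the largest change in any knockdown, and named other genes the 3 largest called changes per knockdown; any gene named beyond these rules was chosen after its values were seen. A few of the other lipid genes are not reported here. The members and all lists were chosen with earlier results of these data known. Alternatives were another pseudocount, no filter, median-ratio scaling, quantile normalization, only the groups compared, all 15 libraries with table as a term, the replicate number as a block, and each library left out. Promoter sequences and gene overlaps are from RefSeq (GRCm38.p6) and were matched by symbol; no coordinates of the mm9 files were used.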

Additional observations from a re-analysis of the deposited data

Results flagged for a closer look

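Of the 30 members and 59 other lipid genes tested, 5 had every siRpl11 library on 1 side of siNT and every other knockdown library on the other. The share of all genes with this pattern was not computed, so nothing is read from the count. For each of the 5, limma called the difference between siRpl11 and the mean of siRpl14, siRpl18 and siRpl23, as it did for 62.6% of all genes. Because the 5 were picked on these same libraries, that call was largely set in advance. The adjusted p-values of this contrast below are therefore a description and no support for the pattern. For Scap, a member of the list, that difference was -1.17 ± 0.052 on the log2 scale, with 9.34, 8.52 and 10.2 FPKM in siRpl11, against 12.1, 11.4 and 11.5 in siNT. For Abcg1, a sterol exporter, it was -1.36 ± 0.064 (adjusted p = 6.85e-08), with 1.401, 1.54 and 1.23 FPKM in siRpl11, 5.75, 5.74 and 6.47 in siRpl14, 4.89, 4.86 and 5.31 in siRpl18 and 5.11, 5.76 and 6.88 in siRpl23, against 4.52, 4.03 and 2.97 in siNT. Aacs, which activates acetoacetate for lipid synthesis, differed by -0.89 ± 0.052 (adjusted p = 3.08e-07), with 6.85, 6.396 and 6.53 FPKM in siRpl11, 13.4, 12.7 and 15.6 in siRpl14, 12.7, 13.1 and 15.2 in siRpl18 and 14.3, 12.8 and 15.7 in siRpl23, against 8.499, 8.65 and 9.98 in siNT. Elovl1, an elongase of very long fatty acids, differed by -0.79 ± 0.064 (adjusted p = 3.30e-06), with 7.18, 7.23 and 6.504 FPKM in siRpl11, against 7.96, 9.12 and 6.86 in siNT. Osbp, an oxysterol-binding protein, differed by -0.40 ± 0.064 (adjusted p = 3.53e-04), with 12.7, 11.4 and 10.6 FPKM in siRpl11, against 14.99, 13.6 and 11.9 in siNT. Its differences from siNT in siRpl14, siRpl18 and siRpl23 (0.15, 0.19 and 0.18) were not called.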

How the results depend on the processing

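The counts of members called lower than siNT stayed within 26 to 27 in siRpl11, 21 to 24 in siRpl14, 23 to 26 in siRpl18 and 20 to 25 in siRpl23 over all alternatives. Counts called higher were small and moved: in siRpl11 from 2 to 0 with all 15 libraries and 1 to 2 with 1 library left out (1 without siNT replicate 1 or either siRpl11 replicate), in siRpl14 1, or 1 to 2 with 1 library left out (2 without siRpl14 replicate 1), in siRpl18 from 1 to 2 under median-ratio scaling or all 15 libraries, and in siRpl23 from 2 to 1 under quantile normalization, in a fit of only the groups compared and in some with 1 library left out (1 to 2). For siRpl11 against the other knockdowns, the 2 called higher became 10 with median-ratio scaling, 11 with quantile normalization and 1 to 3 with 1 library left out. Among siRpl14, siRpl18 and siRpl23 the 5 called became 2 with no filter, 3 with median-ratio scaling, 3 with all 15 libraries, 0 to 3 with 1 library left out and 13 with the replicate block. Other lipid genes higher in siRpl11 went from 7 to 11 with median-ratio scaling; their other counts stayed within 1.5 times. Over the alternatives of 84 named changes, 1392 kept direction and call, 24 gained a call, 8 lost 1 and 4 turned, none of them called in the reported fit: Pmvk in siRpl14 (-0.086 to 0.00095 with 1 library left out, the highest without siRpl14 replicate 1), Idi1 in siRpl11 (0.042 with median-ratio scaling, 0.13 with quantile normalization) and Idi1 in siRpl23 (-0.25 to 0.00066, the highest without siRpl23 replicate 2). The cause was not tested. Same-numbered replicates deviated together only weakly (r of -0.0858 to 0.195 between groups), so the numbers were not taken as pairs; apart from the count of 13 the block moved no count by over 1.5 times. A library left out leaves 1 in its group, which is assumed to vary like the others.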

Other observations

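Mbtps2, a protease that releases SREBPs in the Golgi, rose in all knockdowns while Mbtps1, the protease that acts before it, fell. Mbtps2 measured 8.87, 8.37 and 13.6 FPKM in siRpl11, 9.395, 9.15 and 15.6 in siRpl14, 9.21, 9.28 and 15.9 in siRpl18 and 9.05, 8.89 and 16.6 in siRpl23, against 5.09, 5.197 and 9.96 in siNT, with 0.65 ± 0.056 in siRpl11 (adjusted p = 3.88e-06), 0.74 ± 0.056 in siRpl14 (adjusted p = 2.02e-06), 0.74 ± 0.056 in siRpl18 (adjusted p = 1.64e-06) and 0.70 ± 0.056 in siRpl23 (adjusted p = 2.61e-06). For Mbtps1 the log2 fold change was -0.54 ± 0.049 in siRpl11 (adjusted p = 5.35e-06), -0.19 ± 0.049 in siRpl14 (adjusted p = 0.00726), -0.16 ± 0.049 in siRpl18 (adjusted p = 0.0132) and -0.23 ± 0.049 in siRpl23 (adjusted p = 0.00218), and every knockdown library was below siNT in its table. Insig2, the second INSIG gene, measured 10.1, 10.7 and 10.1 FPKM in siRpl11, 12.3, 12.7 and 10.9 in siRpl14, 11.7, 12.8 and 12.2 in siRpl18 and 12.7, 13.3 and 11.6 in siRpl23, against 9.68, 8.97 and 9.89 in siNT. It rose in siRpl14 (0.39 ± 0.063, adjusted p = 4.10e-04), siRpl18 (0.36 ± 0.063, adjusted p = 5.88e-04) and siRpl23 (0.44 ± 0.063, adjusted p = 1.72e-04) and was not called in siRpl11 (0.14 ± 0.063, adjusted p = 0.067). These genes were chosen after their values were seen.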
